A study of Homo sapiens with 9 samples.

Results

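The clustered protocadherins are a family of cell-surface adhesion proteins whose genes lie in 3 adjoining clusters, alpha, beta and gamma, on chromosome 5. Their transcripts were followed here by gene, by cluster and by library in A498 cells depleted of BMAL1 or ARNT. Members were the genes of the count table whose symbols begin with PCDHA, PCDHAC, PCDHB, PCDHGA, PCDHGB or PCDHGC followed by a number. The rule found 53 genes of 27673, with 15 in the alpha cluster, 16 in the beta cluster and 22 in the gamma cluster.

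The A498 cell line was derived from a human clear cell renal cell carcinoma (ccRCC). Lentivirus made from PLKO.1 vectors delivered short hairpin RNAs (shRNAs), which targeted BMAL1 in the shBMAL1 group, ARNT in the shARNT group and neither gene in the shControl group. All 3 groups, the controls included, therefore carried a vector and passed through puromycin, at 2.5 µg/mL for 1 week and at 1.25 µg/mL thereafter. BMAL1 dimerises with CLOCK to drive circadian transcription, ARNT dimerises with the hypoxia-inducible factors (HIFs), and the study asked what each contributes to transcription driven by HIF2α. Each group had 3 biological replicates, and each target was depleted with 1 shRNA, so the effect of a hairpin and that of its target cannot be told apart. The p-values measure the spread between these libraries.

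Each alternate isoform of the alpha and gamma clusters starts at its own promoter with its own large first exon, which encodes the extracellular, transmembrane and proximal cytoplasmic parts. That exon is then spliced to 3 exons common to the cluster, which encode the rest of the cytoplasmic domain. Beta genes have no common exons, and each encodes a complete protein in 1 exon. In neurons, promoters are chosen in different combinations from cell to cell, and the resulting proteins bind only their own kind across cell contacts, which lets the branches of a neuron recognise each other. Choice depends on looping between promoters and distant enhancers through CTCF and cohesin, whereas DNA methylation by DNMT3B and the repressor SMCHD1 hold promoters silent. In several tumours, promoters of these clusters are known to be densely methylated. The C-type isoforms (PCDHAC1, PCDHAC2, PCDHGC3, PCDHGC4 and PCDHGC5) lie at the ends of the alpha and gamma clusters and are used in a less variable way.

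By the GENCODE annotation on GRCh37, the alpha genes span chr5:140165721-140391932, the beta genes chr5:140430959-140628933 and the gamma genes chr5:140710081-140892544. The common exons make up 2869 bases in alpha and 2177 bases in gamma, against median first exons of 2532 and 2598 bases. Because reads from common exons belong to every isoform of a cluster, sums over a cluster are the safer measure. The first common coding exon has 59 bases in both clusters, chr5:140358534-140358592 in alpha and chr5:140874374-140874432 in gamma, and is shown as an example of sequence that no single isoform owns. Capitals mark the 39 bases that are identical between the clusters.
Alpha: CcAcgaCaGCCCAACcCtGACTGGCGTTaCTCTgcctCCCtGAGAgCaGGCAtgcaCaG
Gamma: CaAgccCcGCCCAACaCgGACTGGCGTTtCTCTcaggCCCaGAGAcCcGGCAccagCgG
Measured in stretches of 100 bases, the length of a sequenced read, 36.0% to 52.2% of an alpha transcript, 46.9% to 55.7% of a gamma transcript and 74.4% to 100% of a beta transcript were found nowhere else in the annotated transcripts of the family.

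Library totals were even, at 35269857 to 36099083 counts, and the 53 genes together took 0.0288% to 0.0441% of them. ARNT fell in shARNT by 2.41 on the log2 scale, and ARNTL, the older symbol of BMAL1, fell in shBMAL1 by 1.70. ARNT was also lower in shBMAL1 (-0.65 ± 0.0599, adjusted p = 1.54e-08, edgeR), and ARNTL was higher in shARNT (0.55 ± 0.0866, adjusted p = 8.27e-06). Renal and epithelial markers were present in every library, with 1124 to 4232 counts of PAX8 and 24576 to 36648 counts of KRT8. PAX2 had 197 to 366 counts and KRT18 had 15740 to 23200. Others of this list varied widely between libraries, with 31140 to 199887 counts of VIM, 2787 to 12096 of EPAS1 and 32.7 to 2640 of CA9. Endothelial and leukocyte markers were at or near 0, with at most 9 counts of VWF and 12 of PTPRC. Of 6 neuron markers, STMN2 had no counts and SYP and RBFOX3 had at most 11 and 5, but NEFL and MAP2 were expressed, and the summed level of the 6 was 302 to 309 CPM (counts scaled to library size) in the controls, 180 to 190 CPM in the shBMAL1 libraries and 138 to 148 CPM in the shARNT libraries. That sum was mostly NEFL and fell alongside the alpha and beta clusters. In contrast, MAP2 alone rose in shARNT by 2.02 on the log2 scale and was not called in shBMAL1 (0.24). SNAP25, with 24 to 84 counts, fell in shARNT (-1.72) and was not called in shBMAL1 (-0.04). The part of these markers in the results was not tested.

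All 3 clusters were transcribed in A498 cells, and their sums moved differently. Alpha and beta fell in both depletions, whereas gamma fell in shARNT and rose slightly in shBMAL1. The differences were tested with the quasi-likelihood test of edgeR over all 9 libraries and a change is called where the p adjusted by Benjamini-Hochberg was under 0.1. The CPM values below are relative to library sizes after TMM scaling (trimmed mean of M values), fold changes are log2 values with their standard errors (SE), and n = 3 per group for every mean ± SD.

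The alpha sum was 3589, 3226 and 3435 in shControl, 2538, 2524 and 2516 in shBMAL1, and 2129, 2043 and 2033 in shARNT (counts of replicates 1, 2 and 3). The control libraries were the highest and the shARNT libraries the lowest, without overlap among the 3 groups. Mean levels were 103.3 ± 4.98, 73.8 ± 0.500 and 52.2 ± 1.34 CPM, respectively. The alpha sum fell in shARNT (log2 fold change -0.99 ± 0.0476, adjusted p = 8.6e-14, edgeR) and in shBMAL1 (-0.48 ± 0.0470, adjusted p = 2.39e-08), and it was lower in shARNT than in shBMAL1 (-0.50 ± 0.0479, adjusted p = 6.3e-09).

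The beta sum was 2084, 2270 and 2234 in shControl, 1244, 1320 and 1330 in shBMAL1, and 1291, 1349 and 1140 in shARNT. Both depleted groups lay below all controls, and shBMAL1 and shARNT overlapped in counts but not in CPM. Mean levels were 66.4 ± 3.33, 37.9 ± 1.40 and 31.8 ± 2.77 CPM. Beta fell in shARNT (-1.06 ± 0.0632, adjusted p = 2.71e-12, edgeR) and in shBMAL1 (-0.81 ± 0.0629, adjusted p = 9.11e-10). Directly, beta was lower in shARNT than in shBMAL1 (-0.25 ± 0.0646, adjusted p = 0.00131), and with library size alone as the scaling it was -0.06 with an adjusted p of 0.371.

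The gamma sum was 9729, 9373 and 9954 in shControl, 11040, 10961 and 11456 in shBMAL1, and 6916, 6986 and 7213 in shARNT. Here shBMAL1 lay above every control and shARNT below. Mean levels were 293 ± 8.33, 326 ± 9.71 and 178 ± 3.73 CPM. Gamma fell in shARNT (-0.72 ± 0.0383, adjusted p = 4.12e-13, edgeR) and rose in shBMAL1 (0.15 ± 0.0379, adjusted p = 0.00157), and the depletions differed directly by -0.88 ± 0.0383, adjusted p = 1.66e-14. TMM scaling placed the median of all genes at -0.01 in shARNT, where library size alone placed it at 0.23. The gamma sum was then -0.48.

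**Figure D1:**
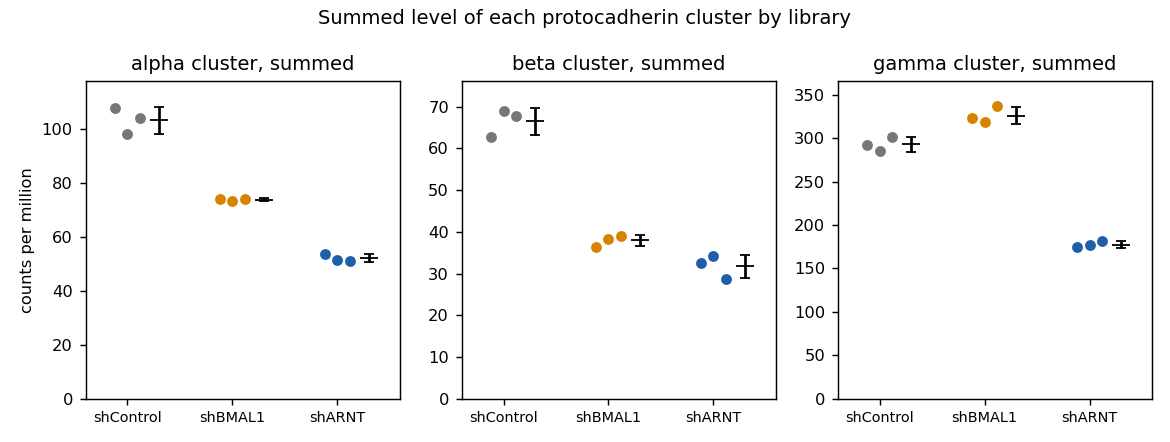
Summed level of the alpha, beta and gamma protocadherin genes in CPM (vertical axes, from 0) in the 3 libraries of each group (points), with mean and SD beside them (bars). Alpha and beta are lower in both depletions, at means of 73.8 and 37.9 in shBMAL1 and 52.2 and 31.8 in shARNT against 103.3 and 66.4 in shControl, while gamma is 326 in shBMAL1 and 178 in shARNT against 293.

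Of the 53 genes, 46 passed the filter on low counts and were tested. The remaining 7 were PCDHB1, PCDHB5, PCDHB6, PCDHGA2, PCDHGA3, PCDHGB3 and PCDHGA7, with at most 11.3 counts in any library. PCDHB1 had 0 counts in all 9 libraries, which allows up to 3 counts per library by counting error alone. PCDHGA2 had 4, 6 and 4 counts in shControl, 7, 6 and 4 in shBMAL1, and 1, 0 and 0 in shARNT.

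In shARNT, 26 of the 46 tested members were lower and 2 higher, against backgrounds of 41.3% lower and 40.5% higher among the 15551 genes tested. In shBMAL1, 16 were lower and 4 higher, against 31.5% and 31.9%. Both lower counts include PCDHA11, whose deposited values depend on how alpha reads were written in each library, as described below. Set against shBMAL1 directly, shARNT had 21 lower and 5 higher, against 41.1% and 40.1%. In either direction, 81.8%, 63.3% and 81.2% of all genes were called in these contrasts, so a call in itself was common. The median log2 fold change of the tested members was -0.80 for shARNT, -0.19 for shBMAL1 and -0.80 directly, and the medians of all genes were -0.01, -0.00 and -0.01. The 2 depletions were set against the same 3 control libraries, so their values are given side by side and not as separate evidence.

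**Figure D2:**
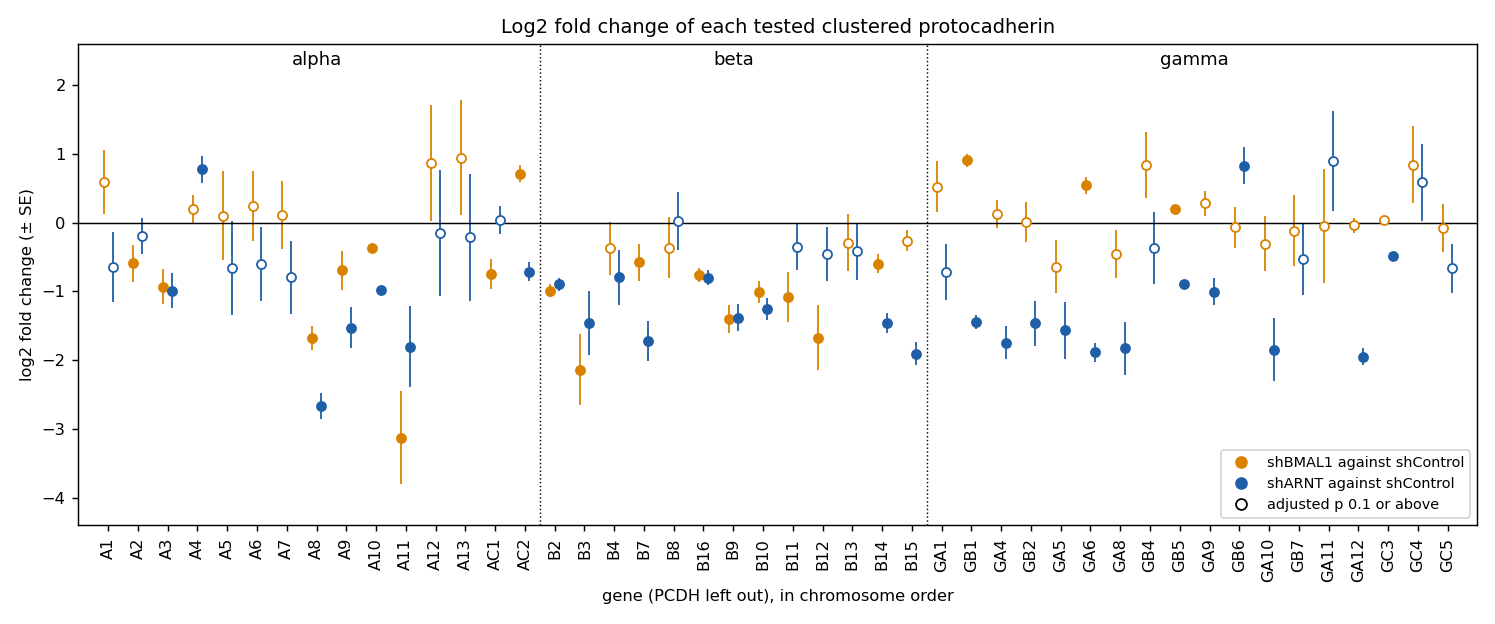
Log2 fold change (vertical axis, ± SE) of the 46 tested clustered protocadherins in chromosome order, for shBMAL1 (orange) and shARNT (blue) against shControl. Filled points have an adjusted p under 0.1. In beta no filled point of either colour is above 0, and in gamma 11 filled blue points are below 0 while the 3 filled orange points are above it.

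In the beta cluster the called changes against controls were all downward. In each depletion 9 of 13 tested beta genes fell and 0 rose (edgeR; 0 also rose at an unadjusted p under 0.05 or by DESeq2), and their median log2 fold changes were -0.90 in shARNT and -0.76 in shBMAL1. Between the depletions, 3 were lower and 2 higher in shARNT, and 8 were not called. The shares over all genes were 41.3% lower and 40.5% higher in shARNT, 31.5% and 31.9% in shBMAL1, and 41.1% and 40.1% directly. Values of all 16 beta genes were whole numbers in every library. Of the 16 genes, 15 have an annotated gene on the opposite strand over their exon, and whether the counting used strand was not stated. Across all clusters, 26 members have such a gene over the first exon, among them PCDHA4, PCDHA9, PCDHAC2 and PCDHGB1, so the same limit applies to them.

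Beta promoters also have sequence in common. Promoters of clustered protocadherins carry a conserved element with the core CGCT, which was present, on either strand, in 51 of the 52 RefSeq promoter windows found for 47 members (GRCh38.p14, 250 bases before to 50 after the start), although 70.0% of all 35116 windows hold it. For each cluster, the string of 8 letters ending in CGCT that occurred in the most windows was then counted on both strands, a search made after the windows had been seen. In beta it was GTGGCGCT, in 13 of 14 genes with a window, in no alpha or gamma window and in 1.15% of all windows. In alpha it was ATGTCGCT, in 9 of 13 genes, in no beta or gamma window and in 0.234% of all windows. In gamma it was GCGCCGCT, in 10 of 20 genes, in no alpha or beta window and in 3.17% of all windows. All 3 strings contain the core CGCT.

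The beta stretches below show how far the resemblance extends around the string, which is in capitals. They are the 6 beta genes with the most counts.
PCDHB2: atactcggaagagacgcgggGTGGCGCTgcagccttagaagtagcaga
PCDHB16: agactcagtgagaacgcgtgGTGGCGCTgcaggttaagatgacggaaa
PCDHB14: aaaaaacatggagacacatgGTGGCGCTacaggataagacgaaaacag
PCDHB10: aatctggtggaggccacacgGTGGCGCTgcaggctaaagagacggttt
PCDHB15: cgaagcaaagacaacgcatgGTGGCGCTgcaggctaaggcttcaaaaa
PCDHB9: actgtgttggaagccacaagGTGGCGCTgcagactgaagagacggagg
They lie on the forward strand at chr5:141094536-141094583, chr5:141182302-141182349, chr5:141223255-141223302, chr5:141192291-141192338, chr5:141245306-141245353 and chr5:141187066-141187113 of GRCh38.p14, and in each the string begins 42 to 75 bases before the annotated start. PCDHB1 was the beta gene without the string in its window and the one without counts. However, PCDHB5 holds the string and had only 0 to 11 counts, and PCDHB6 and PCDHB11 had no window. The match is a description of the letters, and neither binding nor use of these promoters was measured.

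Per kilobase of transcript, PCDHB2 was the most abundant beta gene in controls at 5.41 ± 0.570 CPM per kb. PCDHB16 followed at 3.43 ± 0.161, PCDHB14 at 2.22 ± 0.0599, PCDHB10 at 1.50 ± 0.109, PCDHB15 at 1.40 ± 0.217 and PCDHB9 at 1.18 ± 0.129. Of these neighbours in rank, PCDHB10 and PCDHB15 did not differ beyond their spread, nor did PCDHB15 and PCDHB9. The other 10 beta genes had 0.396 CPM per kb or less.

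PCDHB2, PCDHB16, PCDHB9 and PCDHB10 fell in both depletions, and their direct differences were not called. PCDHB2 had counts of 654, 799 and 741 in shControl, 362, 417 and 365 in shBMAL1, and 497, 492 and 421 in shARNT, with every depleted library below every control. It fell in shARNT (-0.90 ± 0.0934, adjusted p = 2.61e-08, edgeR) and in shBMAL1 (-0.99 ± 0.0951, adjusted p = 2.53e-08), and the difference between the depletions was 0.09 ± 0.0978, within its error. PCDHB16 had counts of 422, 456 and 427 in shControl, 252, 258 and 286 in shBMAL1, and 315, 325 and 258 in shARNT, again without overlap between depleted and control libraries. Its log2 fold changes were -0.80 ± 0.104 in shARNT and -0.76 ± 0.105 in shBMAL1, and the direct difference was -0.04 ± 0.108. PCDHB9 had counts of 155, 190 and 167 in shControl, 46, 75 and 79 in shBMAL1, and 87, 88 and 60 in shARNT. Its log2 fold changes were -1.38 ± 0.196 and -1.40 ± 0.200 in shARNT and shBMAL1. PCDHB10 changed by -1.26 and -1.01 in the same order, with a direct difference of -0.25 ± 0.170.

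PCDHB15, PCDHB14 and PCDHB7 were lower in shARNT than in shBMAL1. PCDHB15 had counts of 200, 150 and 201 in shControl, 150, 173 and 153 in shBMAL1, and 65, 63 and 48 in shARNT, so that shARNT lay far below both other groups while shBMAL1 overlapped the controls. It fell in shARNT (-1.90 ± 0.170, adjusted p = 2.42e-09, edgeR), its change in shBMAL1 was not called (-0.26 ± 0.151, adjusted p = 0.153), and the depletions differed by -1.64 ± 0.172, adjusted p = 2.75e-08. PCDHB14 had counts of 336, 322 and 316 in shControl, 225, 203 and 237 in shBMAL1, and 109, 181 and 135 in shARNT, a graded order without overlap. Its log2 fold changes were -1.46 ± 0.144 in shARNT, -0.60 ± 0.137 in shBMAL1 and -0.86 ± 0.148 between them. PCDHB7, a minor gene with at most 53 counts, had values of -1.72 ± 0.292, -0.57 ± 0.267 and -1.15 ± 0.303, and its call in shBMAL1 (adjusted p = 0.0733, edgeR) was lost without shControl replicate 1 or 3 or shBMAL1 replicate 1 or 2 (adjusted p up to 0.177).

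PCDHB12 and PCDHB11 had the opposite order. PCDHB12 had counts of 13, 15 and 19 in shControl, 4, 4 and 7 in shBMAL1, and 11, 13 and 17 in shARNT and was low in shBMAL1 only, without overlap with either other group. It fell in shBMAL1 (-1.67 ± 0.471, adjusted p = 0.00477, edgeR), the change in shARNT was not called (-0.45 ± 0.397, adjusted p = 0.302), and it was higher in shARNT than in shBMAL1 (1.22 ± 0.482, adjusted p = 0.0271), the last call being lost without shARNT replicate 3 (adjusted p of 0.105). PCDHB11 showed the same order, at -1.08 ± 0.368 in shBMAL1, -0.35 ± 0.336 in shARNT and 0.73 ± 0.372 between them, and its direct call (adjusted p = 0.0818, edgeR) was lost without shControl replicate 3, shBMAL1 replicate 1 or 3, or shARNT replicate 1 or 3 (adjusted p up to 0.288). PCDHB3, with 3 to 29 counts, fell in both depletions (-1.46 ± 0.465 in shARNT and -2.14 ± 0.519 in shBMAL1). With shControl replicate 1 as the only control, and without shARNT replicate 2, the PCDHB3 values were -0.33 and -1.02, and neither was called. In that setting the calls in shBMAL1 of PCDHB12 (-1.40) and PCDHB11 (-1.13) were lost as well. PCDHB4 was lower in shARNT (-0.80 ± 0.395, adjusted p = 0.0727, edgeR), a call lost without shControl replicate 2 or 3 or shARNT replicate 1 or 2 (adjusted p up to 0.253). PCDHB8 and PCDHB13 were not called in any contrast, with values between -0.42 and 0.38.

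In the gamma cluster most tested genes fell in shARNT, and most were not called in shBMAL1. In shARNT 11 of 18 tested gamma genes fell and 1 rose, with a median of -0.95. In shBMAL1 0 fell (edgeR; 0 also at an unadjusted p under 0.05 and by DESeq2) and 3 rose, with a median of 0.03. Directly, 13 were lower in shARNT and 1 higher, with a median of -1.22. Among all genes tested, 41.3% were lower and 40.5% higher in shARNT, 31.5% and 31.9% in shBMAL1, and 41.1% and 40.1% directly. Gamma A genes gave 7 lower of 9 tested in shARNT, and gamma B genes 3 lower and 1 higher of 6.

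PCDHGB1 had counts of 390, 353 and 392 in shControl, 774, 683 and 749 in shBMAL1, and 191, 159 and 150 in shARNT. The shBMAL1 libraries were the highest and the shARNT libraries the lowest, with the controls between them and no overlap. PCDHGB1 fell in shARNT (-1.44 ± 0.106, adjusted p = 1.12e-10, edgeR), rose in shBMAL1 (0.91 ± 0.0929, adjusted p = 5.83e-08) and differed between the depletions by -2.35 ± 0.102, adjusted p = 2.09e-14. PCDHGA6 had the same order, with counts of 233, 259.5 and 232 in shControl, 379, 366 and 348 in shBMAL1, and 67.7, 97.2 and 70.2 in shARNT. It fell in shARNT (-1.88 ± 0.140, adjusted p = 1.33e-10, edgeR), rose in shBMAL1 (0.54 ± 0.119, adjusted p = 0.000616) and gave the largest direct difference of the 46 tested members (-2.43 ± 0.136). PCDHGB5, the second most abundant row of the cluster with 30.8% ± 1.44 of gamma counts in controls, moved less. It had counts of 3010, 3019 and 2921 in shControl, 3440, 3401 and 3805 in shBMAL1, and 1948, 1911 and 1935 in shARNT, with changes of -0.89 ± 0.0506 in shARNT, 0.20 ± 0.0492 in shBMAL1 and -1.09 ± 0.0505 between them, and each was called.

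The element of these promoters is shown for the 2 gamma B genes just described, with GCGCCGCT in capitals. PCDHGA6, which moved with them, does not hold those 8 letters in its window.
PCDHGB1: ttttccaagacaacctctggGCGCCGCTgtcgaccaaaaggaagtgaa
PCDHGB5: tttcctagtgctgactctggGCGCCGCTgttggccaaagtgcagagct
They lie at chr5:141350017-141350064 and chr5:141397855-141397902 of GRCh38.p14, on the forward strand.

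Other gamma genes fell in shARNT without a called change in shBMAL1. PCDHGA12 had counts of 409, 393 and 424 in shControl, 455, 418 and 364 in shBMAL1, and 110, 117 and 152 in shARNT, and shARNT alone stood apart while shBMAL1 and shControl overlapped. It fell in shARNT (-1.95 ± 0.124, adjusted p = 1.06e-11, edgeR) and had -0.04 ± 0.110 in shBMAL1. PCDHGA4, at 66 to 120 counts in shControl and 25 to 40 in shARNT, gave -1.74 ± 0.239 and 0.13 ± 0.208. PCDHGA9 gave -1.01 ± 0.197 and 0.28 ± 0.182, and PCDHGB2 gave -1.47 ± 0.323 and 0.01 ± 0.289. PCDHGA5 and PCDHGA10, both with at most 35 counts, fell in shARNT by 1.57 and 1.85 on the log2 scale, and their values in shBMAL1 were -0.64 ± 0.388 and -0.31 ± 0.399. PCDHGA1, PCDHGB7, PCDHGA11, PCDHGC4 and PCDHGC5, with at most 36 counts in any library, were not called against controls in either depletion. Of them, PCDHGA1 was lower in shARNT than in shBMAL1 (-1.24 ± 0.391, adjusted p = 0.00714, edgeR).

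PCDHGB6 went against its cluster. It had counts of 28, 20 and 35 in shControl, 20, 31 and 31 in shBMAL1, and 66, 59 and 52 in shARNT, and the shARNT libraries lay above all others. It rose in shARNT (0.83 ± 0.274, adjusted p = 0.0095, edgeR), had -0.07 ± 0.298 in shBMAL1, and was higher in shARNT than in shBMAL1 (0.90 ± 0.274, adjusted p = 0.00584). Without shControl replicates 2 and 3 and shARNT replicate 2, the libraries whose alpha values are written in another way, its rise in shARNT was 0.82 with an adjusted p of 0.111.

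PCDHGA8 and PCDHGB4 overlap and are read together. The annotated exons of PCDHGA8 and PCDHGB4 overlap on the same strand over 2266 bases, chr5:140769724-140771989 in GRCh37. Their deposited values were fractions in most libraries but summed to a whole number, within 0.0011, in 9 of 9. In shControl replicate 1 all 160 counts stood on PCDHGA8 and none on PCDHGB4, whereas elsewhere PCDHGB4 held the larger share. The sums were 160, 137 and 133 in shControl, 161, 171 and 190 in shBMAL1, and 84, 81 and 86 in shARNT. As 1 row, a reading added after the data had been seen, the pair fell in shARNT (-1.04 ± 0.148, adjusted p = 2.46e-06, edgeR) and was not called in shBMAL1 (0.23 ± 0.138, adjusted p = 0.162). Taken apart, PCDHGA8 gave -1.83 ± 0.386 and PCDHGB4 -0.37 ± 0.522 in shARNT, and these values move with the division in that control library. PCDHGA6 and PCDHGC3 also carried fractions, with whole sums in 8 of 9 libraries, and PCDHGB3 had 11.3 counts in shARNT replicate 1 and 0 in the other libraries.

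**Figure D3:**
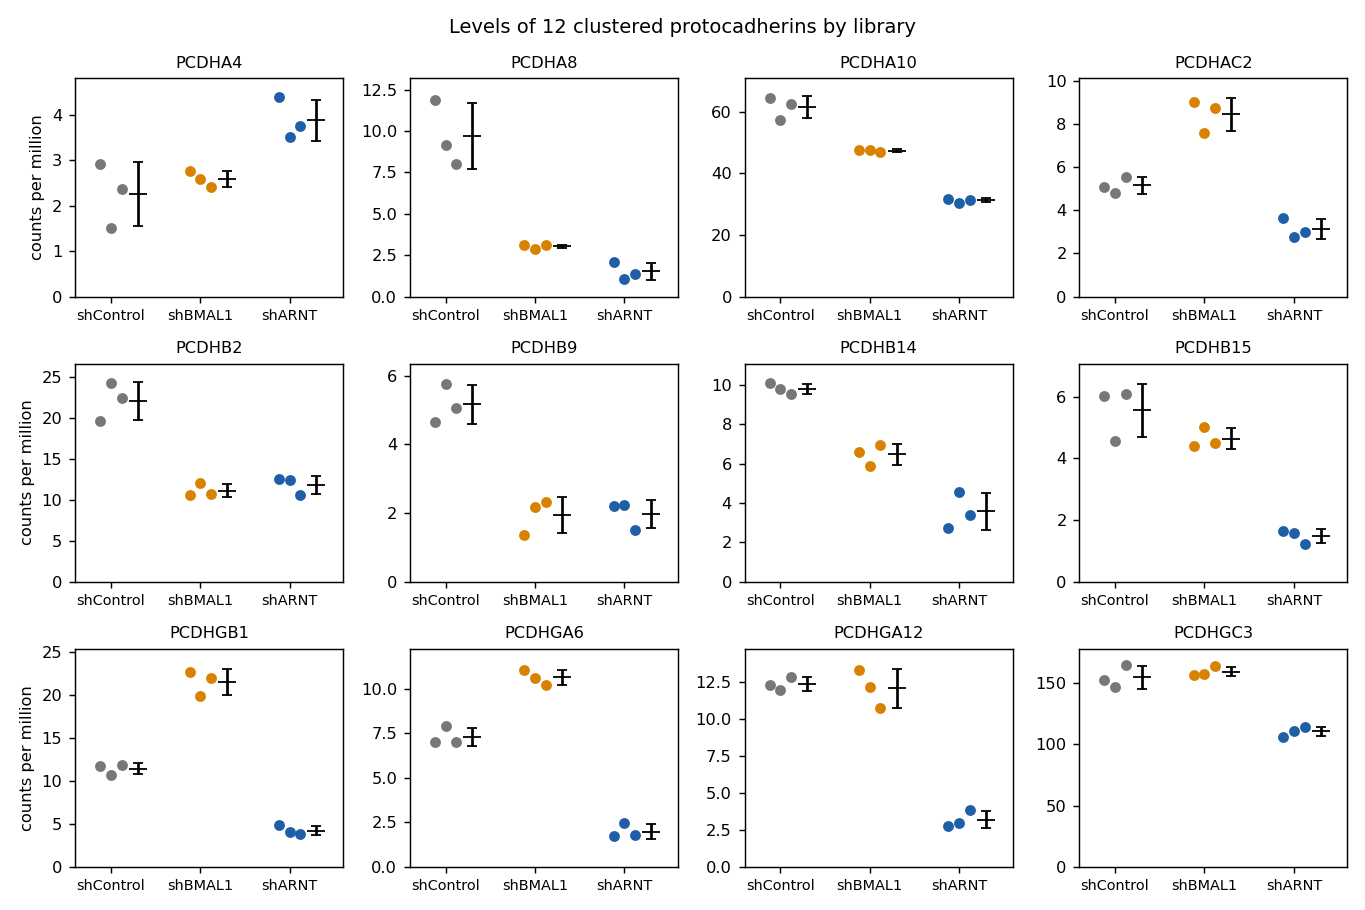
Level of 12 clustered protocadherins in CPM (vertical axes, each from 0) in the 3 libraries of each group (points), with mean and SD (bars). PCDHB2 and PCDHB9 are low in both depletions, PCDHB15 and PCDHGA12 in shARNT alone, and PCDHGB1, PCDHGA6 and PCDHAC2 are highest in shBMAL1 and lowest in shARNT.

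The C-type isoforms did not move as a block. PCDHGC3, the widely expressed isoform of the gamma cluster, held 52.9% ± 1.72 of gamma counts in shControl, 48.9% ± 0.458 in shBMAL1 and 62.2% ± 1.10 in shARNT. It had counts of 5079, 4835 and 5458 in shControl, 5371, 5423 and 5581 in shBMAL1, and 4217, 4384 and 4544 in shARNT. It fell in shARNT (-0.49 ± 0.0467, adjusted p = 7.93e-09, edgeR), by less than most gamma A and B genes that fell, and was not called in shBMAL1 (0.04 ± 0.0464, adjusted p = 0.453). Where the reads of the common gamma exons were counted could not be read from the values. Without PCDHGC3, the gamma sum changed by -1.04 in shARNT, 0.27 in shBMAL1 and -1.31 between them.

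PCDHAC2, the C-type alpha isoform known for the spacing of serotonergic axons, had counts of 169, 159 and 184 in shControl, 309, 262 and 298 in shBMAL1, and 145, 110 and 119 in shARNT. The shBMAL1 libraries were the highest, the shARNT libraries the lowest, and the groups did not overlap. PCDHAC2 fell in shARNT (-0.71 ± 0.138, adjusted p = 9.48e-05, edgeR), rose in shBMAL1 (0.71 ± 0.128, adjusted p = 7.5e-05) and differed between them by -1.43 ± 0.132, adjusted p = 4.52e-09. PCDHAC1 was lower in shBMAL1 (-0.75 ± 0.218, adjusted p = 0.00588, edgeR), did not differ detectably in shARNT (0.04 ± 0.202, adjusted p = 0.879) and was higher in shARNT than in shBMAL1 (0.79 ± 0.214, adjusted p = 0.00241). With the divided alpha reads described next taken out, PCDHAC2 gave -0.75, 0.70 and -1.45, and PCDHAC1 0.07, -1.29 and 1.37, in shARNT, in shBMAL1 and between them. PCDHGC4, an isoform required for the survival of neurons, had 3 to 16 counts, and PCDHGC5 had 16 to 36.

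In the alpha cluster, the deposited values of single rows depended on how reads common to several isoforms had been written in each library. In 6 libraries the alpha values carried fractions in 19ths. In each of these, 7 to 11 rows had the same fraction, and PCDHA1, PCDHA6 and PCDHA10, with PCDHA11 in 4 of the 6, carried it doubled. The remaining rows departed from it by a further simple fraction of a read. Weights of 2 for those 4 rows and 1 for the other 11 sum to 19. In the remaining 3 libraries, shControl replicates 2 and 3 and shARNT replicate 2, every alpha value was whole. PCDHA11 then held 548, 561 and 330 counts, against 37.3 to 74.2 in the 6 libraries with fractions, and PCDHA12 and PCDHA13 held 0. The number of reads that could have been divided in this way, counted up to the point where 1 row would reach 0, was 638 in shControl replicate 1, 407, 435 and 425 in shBMAL1, and 329 and 329 in shARNT replicates 1 and 3. These reads and the PCDHA11 counts of the other 3 libraries made up 15.5% to 17.8% of the alpha sum.

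**Figure D4:**
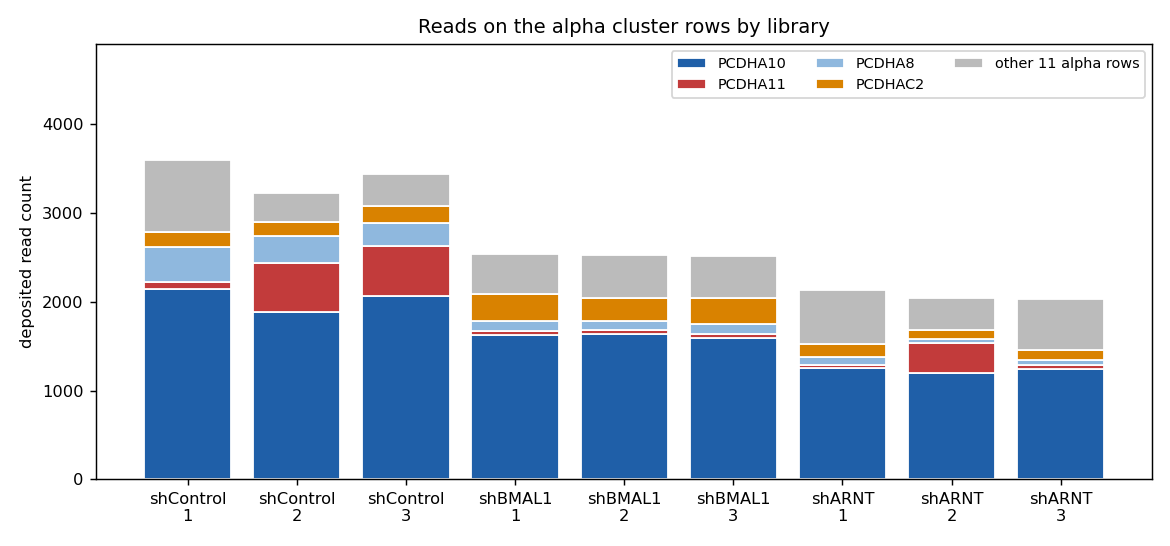
Deposited read counts of the alpha cluster in each of the 9 libraries (stacked bars, vertical axis from 0), split into PCDHA10, PCDHA11, PCDHA8, PCDHAC2 and the other 11 rows. PCDHA11 (red) is wide in shControl replicates 2 and 3 and in shARNT replicate 2, at 548, 561 and 330 counts, and narrow elsewhere, while the bar heights are 3226 to 3589 (shControl), 2516 to 2538 (shBMAL1) and 2033 to 2129 (shARNT).

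The larger alpha isoforms are therefore given both as deposited and after these reads were taken out of each row and set aside as a row of their own, a treatment chosen after the data had been seen. What remains, called own reads here, is a lower bound in the 6 libraries with fractions, since the amount taken out is the largest that the rows allow. PCDHA6 in shBMAL1 replicate 3 and PCDHA1 in shARNT replicate 3 stand at 0 by construction. The libraries with fractions are shControl replicate 1, all of shBMAL1 and shARNT replicates 1 and 3, so the subtraction is uneven across groups. In rows other than PCDHA11, taking out too much would lower shBMAL1 against shControl. Leaving divided reads in would raise it. No call is drawn from own reads for the rows with few of them. The reads set aside fell, changing by -1.08 in shARNT and -0.51 in shBMAL1 (log2 fold change, edgeR). As deposited, 6 of 15 alpha genes were lower and 1 higher in shARNT, and 7 were lower and 1 higher in shBMAL1. Both lower counts include PCDHA11, whose deposited values depend on how reads were written. Over all genes tested, 41.3% were lower and 40.5% higher in shARNT, and 31.5% and 31.9% in shBMAL1. The share of alpha genes lower in shARNT was thus near that of all genes.

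PCDHA10 was the main alpha isoform, with 59.4% ± 0.806 of alpha counts as deposited in shControl, 64.1% ± 0.777 in shBMAL1 and 59.7% ± 1.38 in shARNT. Its own reads numbered 2075, 1887 and 2062 in shControl, 1586, 1590 and 1547 in shBMAL1, and 1219, 1203 and 1211 in shARNT, in 3 groups that did not overlap. It fell in shARNT (-0.99 ± 0.0526, adjusted p = 4.36e-13, edgeR) and in shBMAL1 (-0.40 ± 0.0516, adjusted p = 1.34e-06), and the deposited values gave -0.98 and -0.38. PCDHA8 fell in both depletions. Its own reads numbered 362, 302 and 265 in shControl, 85, 77 and 83 in shBMAL1, and 66, 43 and 38 in shARNT, with the depleted libraries far below the controls. Its log2 fold changes were -2.92 ± 0.181 in shARNT, -1.97 ± 0.168 in shBMAL1 and -0.95 ± 0.204 between them, and -2.67, -1.68 and -0.99 as deposited.

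PCDHA9 was lower in shARNT in both readings, while the size of its change in shBMAL1 depended on the uneven subtraction. Its own reads numbered 63, 56 and 43 in shControl, 21, 21 and 17 in shBMAL1, and 17, 21 and 9 in shARNT. They gave changes of -2.04 ± 0.319 in shARNT and -1.50 ± 0.309 in shBMAL1. As deposited, the changes of PCDHA9 were -1.53 ± 0.298 and -0.69 ± 0.282, and the second lost its call without shControl replicate 1 (adjusted p of 0.394) or shBMAL1 replicate 3 (adjusted p of 0.101). The direct difference of PCDHA9 was called as deposited (-0.83 ± 0.312) and not once these reads were taken out (-0.54 ± 0.360). PCDHA4 was the alpha gene that rose in shARNT. Its own reads numbered 63, 50 and 78 in shControl, 74, 66 and 60 in shBMAL1, and 157, 139 and 132 in shARNT, with shARNT above all other libraries. Its changes were 0.90 ± 0.183 in shARNT and 0.02 ± 0.197 in shBMAL1, the first of them called, and as deposited 0.78 ± 0.194 and 0.19 ± 0.204.

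For the smaller alpha rows the 2 readings differed. PCDHA3 was lower in both depletions as deposited (-0.99 ± 0.254 in shARNT and -0.93 ± 0.258 in shBMAL1), with a direct difference of -0.06 ± 0.272 that was not called. Its own reads numbered 45.3, 54 and 48 in shControl, 15, 5.33 and 12 in shBMAL1, and 19.3, 31 and 24 in shARNT, and the values without the divided reads were -1.25 ± 0.314 and -2.24 ± 0.356. PCDHA2 was lower in shBMAL1 as deposited (-0.59 ± 0.269, adjusted p = 0.0666, edgeR), a call lost without shControl replicate 1 or shBMAL1 replicate 1 (adjusted p up to 0.373), and its change in shARNT was not called (-0.19 ± 0.256). The exons of PCDHA2 and PCDHA3 overlap over 562 bases, so their reads may be mixed.

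PCDHA1, PCDHA5, PCDHA6 and PCDHA7 were not called against controls as deposited, with changes of -0.64 ± 0.511, -0.66 ± 0.681, -0.60 ± 0.539 and -0.79 ± 0.531 in shARNT and 0.59 ± 0.471, 0.10 ± 0.647, 0.24 ± 0.513 and 0.11 ± 0.499 in shBMAL1. Their own reads numbered at most 22 in any library. PCDHA11 had at most 7 own reads, PCDHA12 at most 4.67 and PCDHA13 at most 1.33 where they could be counted. PCDHA13 stood at 0 by construction in shControl replicate 1, shBMAL1 replicates 1 and 2 and shARNT replicate 3, as did PCDHA12 in shBMAL1 replicate 2. Their few own reads are therefore no separate evidence. Most of what the deposited rows of PCDHA12 and PCDHA13 held could be divided reads. Their log2 fold changes, like that of PCDHA11, give no level of those isoforms.

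The alpha promoters are shown for PCDHA10, PCDHA8 and PCDHA4, the main isoform, one that fell in both depletions and one that rose in shARNT, with ATGTCGCT in capitals.
PCDHA10: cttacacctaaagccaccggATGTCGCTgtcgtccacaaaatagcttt
PCDHA8: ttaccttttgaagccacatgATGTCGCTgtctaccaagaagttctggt
PCDHA4: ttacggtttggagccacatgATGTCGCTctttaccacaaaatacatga
They lie at chr5:140855833-140855880, chr5:140841122-140841169 and chr5:140806971-140807018 of GRCh38.p14, on the forward strand.

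The E-box CACGTG, the sequence that BMAL1 and CLOCK are known to bind, was in the windows of 3 members, PCDHA9, PCDHA10 and PCDHA11, and in 7.26% of all windows. In PCDHA9, the only member window without CGCT, it stands just before letters close to ATGTCGCT, where PCDHA8 and PCDHA4 have CACATG.
PCDHA9: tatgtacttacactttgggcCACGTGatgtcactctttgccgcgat
PCDHA10: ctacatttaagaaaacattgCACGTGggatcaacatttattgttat
PCDHA11: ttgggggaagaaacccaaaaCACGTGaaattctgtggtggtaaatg
These stretches lie at chr5:140848273-140848318, chr5:140855677-140855722 and chr5:140868817-140868862 of GRCh38.p14. The shorter letters ACGTG, which CACGTG contains and which are one form of the core that HIF dimers bind, were in 10 member windows against 21.4% of all windows. The other form, GCGTG, was in 7 against 36.5%. Motifs were searched on both strands, and whether any factor occupied these sites was not measured in these libraries.

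The genes known to set promoter choice in these clusters mostly rose in shARNT. Of 21 regulators, a list drawn up with earlier results of these data known, 17 rose and 4 fell in shARNT, against 6 that rose and 8 that fell in shBMAL1, and in the direct contrast 18 were higher and 1 lower in shARNT. Over all genes tested, 40.5% were higher and 41.3% lower in shARNT, and 40.1% and 41.1% in the direct contrast. In either direction, 63.3% were called in shBMAL1, near the share of these regulators, and 81.2% in the direct contrast. DNMT3B, the DNA methyltransferase that silences alternate promoters, rose in shARNT (1.61 ± 0.0640, adjusted p = 5.01e-15, edgeR) and was not called in shBMAL1 (0.13 ± 0.0662, adjusted p = 0.108). It had counts of 1159, 1330 and 1374 in shControl, 1532, 1360 and 1473 in shBMAL1, and 4468, 4754 and 4905 in shARNT, with shARNT far above both other groups. DNMT1, which maintains methylation, gave 1.30 ± 0.0555 in shARNT, PDS5B, a cohesin regulator, 1.24 ± 0.0634, and LRIF1, a partner of SMCHD1, 1.01 ± 0.119. SMCHD1 rose in shARNT (0.65 ± 0.0691) and fell in shBMAL1 (-0.20 ± 0.0717). CTCF fell in both (-0.26 ± 0.0477 and -0.24 ± 0.0479). Called changes in shBMAL1 included ZNF143 at 0.62, the cohesin subunit STAG2 at -0.58 and the corepressor TRIM28 at -0.46, and TRIM28 was higher in shARNT than in shBMAL1 by 1.13.

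Proteins that process or bind protocadherins gave both directions. Of 9 partners tested, 2 rose and 7 fell in shARNT, and 3 rose and 3 fell in shBMAL1. The shares over all genes tested were 40.5% higher and 41.3% lower in shARNT, and 31.9% and 31.5% in shBMAL1. ADAM10, the protease that sheds protocadherin ectodomains, fell in shARNT (-0.59 ± 0.0386) and rose in shBMAL1 (0.39 ± 0.0384). Among subunits of γ-secretase, which then cuts the membrane stub, NCSTN fell in shARNT (-1.02 ± 0.0362), PSENEN rose (1.68 ± 0.0549), and APH1A fell in shBMAL1 (-1.34 ± 0.0540). The kinase FYN fell in shARNT (-0.93 ± 0.217), PTK2 rose in shBMAL1 (0.45 ± 0.0367), in which PTK2B fell (-0.40 ± 0.0628), and RET was not tested.

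Protocadherins outside the clusters and the genes that flank the clusters did not share one direction in shARNT. Of 11 non-clustered protocadherins, 6 were tested, with 1 higher and 2 lower in shARNT and 4 lower and 2 not called in shBMAL1. PCDH7 fell in both (-2.01 ± 0.0883 in shARNT and -1.36 ± 0.0853 in shBMAL1), PCDH12 fell in shARNT (-1.07 ± 0.396) where PCDH9 rose (0.86 ± 0.334), and PCDH18, PCDH10 and PCDH1 fell in shBMAL1 (-1.88 ± 0.449, -0.94 ± 0.303 and -0.42 ± 0.0574). Directly, PCDH18 was higher in shARNT than in shBMAL1 by 1.99 and PCDH10 by 1.40. Of 11 flanking genes tested, 5 rose and 5 fell in shARNT, and 1 rose and 4 fell in shBMAL1. Among all genes tested, 40.5% were higher and 41.3% lower in shARNT, and 31.9% and 31.5% in shBMAL1. In either direction, 81.8% were called in shARNT and 63.3% in shBMAL1, so a call in either list was common in itself. TAF7, which lies between the beta and gamma clusters, had 0.17 ± 0.0479 in shARNT and -0.03 ± 0.0484 in shBMAL1, the second not called. Upstream, HARS and ZMAT2 rose in shARNT (0.76 and 0.76) while HARS2 fell (-0.95), and DND1 fell in shBMAL1 (-0.29). Downstream, DIAPH1 fell in both (-0.58 and -0.55), as did FCHSD1 (-0.68 and -0.33). In these bulk libraries, fewer cells using a promoter and less RNA per cell cannot be told apart.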

How the data were processed

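RNA from 9 libraries of A498 cells (3 each of shControl, shBMAL1 and shARNT) had been sequenced with a stranded mRNA protocol, and the authors deposited 1 table of expected counts per gene, unnormalised, with fractions where reads were divided among genes and 0.05 in place of no reads. The study's methods name SeqMan NGen and ArrayStar with GRCh37, whereas the submitters' processing notes list STAR, DESeq2 and hg38, and which made the table could not be settled. Values of 0.05 were set to 0, rows of the same name (43 names) were summed, and expected counts were rounded; 28 rows whose names had become dates were kept as they stood.

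Genes passing filterByExpr were fitted together over all libraries (edgeR 4.0.16 in R 4.3.3, TMM scaling, quasi-likelihood test, Benjamini-Hochberg adjusted p under 0.1 over all genes tested), and cluster sums in a second fit with the member rows replaced by 3 sums. SE was the absolute log2 fold change divided by the square root of F. The procedure was tested on simulated data. DESeq2 1.42.0, other scalings and filters, a replicate block and omission of each library were alternatives. Members with a mean of at least 10 counts (44) were described singly, and from each gene list up to 4 with the largest called changes per comparison, with CTCF, SMCHD1, DNMT3B and TAF7. One gene that this rule names is not reported here. Members and lists were chosen with earlier results of these data known. Limits of counts cover counting error only. Promoter sequences were from RefSeq (GRCh38.p14), and exon positions from GENCODE on GRCh37.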

Additional observations from a re-analysis of the deposited data

Results flagged for a closer look

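Several measurements moved in opposite directions in the depletions, with a called direct difference between shARNT and shBMAL1 (edgeR, log2 scale, 3 libraries per group). The gamma cluster sum differed by -0.88, from -0.72 in shARNT and 0.15 in shBMAL1. PCDHGB1 differed by -2.35 and PCDHGA6 by -2.43, and PCDHGB5 by -1.09. In the alpha cluster, PCDHAC2 differed by -1.43, from -0.71 and 0.71. The 3 control libraries served both depletions, each of which was made with 1 shRNA, so that differences between hairpins and between targets cannot be told apart.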

How the results depend on the processing

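All 9 comparisons of cluster sums kept their direction in the 19 alternatives. With library size alone, the lower beta sum in shARNT than in shBMAL1 was no longer called (-0.06, adjusted p = 0.371), members higher in shARNT than in shBMAL1 rose in number from 5 to 8, non-clustered protocadherins called in shARNT from 3 to 5, and flanking genes called in shBMAL1 from 5 to 8. Leaving out 1 library at a time, 2 to 4 members were higher in shARNT and 4 to 10 in shBMAL1, and the values 4 and 10 came without shControl replicate 1. Without that library PCDHA12 and PCDHA13 reversed in shARNT, to 6.64 and 6.42, and over the single omissions they spanned -0.73 to 6.64 and -0.79 to 6.42.

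The alternatives in this paragraph were chosen after seeing the data. With the divided alpha reads taken out, 8 members were higher in shARNT than in shBMAL1, PCDHA3 and PCDHA6 reversed in that contrast (0.99 and 1.72), and PCDHA6 and PCDHA7 reversed in shBMAL1 (-3.19 and -1.14). The amount taken out was set by the rows themselves, PCDHA6 among them, so these reversals follow in part from that construction. Without the 3 libraries with undivided alpha reads, PCDHA5, PCDHA6 and PCDHA7 reversed in shBMAL1 (-1.15, -0.90 and -0.87), PCDHA11 reversed between the depletions (-0.51) and PCDHGB4 in shARNT (8.68, against the lone control in which it stood at 0). Partners called in shARNT then numbered 5, flanking genes called in shBMAL1 3, and beta genes lower 7 in shARNT and 5 in shBMAL1. That setting leaves 1 control library, assumed to vary like the other groups, so calls are harder to reach. Calls were lost for PCDHB3 (-0.33 in shARNT and -1.02 in shBMAL1), PCDHB4 and PCDHGB6 (-0.21 and 0.82 in shARNT), and PCDHB7, PCDHB11 and PCDHB12 (-0.62, -1.13 and -1.40 in shBMAL1). Reading PCDHGA8 and PCDHGB4 as 1 row reversed no other member. Beyond the alpha rows, where the way reads were written differs by library, the cause was not tested.

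Libraries with the same replicate number did not deviate together (r of -0.041 to 0.075), so the numbers were not used as pairs. With a replicate block, 26 members were lower and 2 higher in shARNT, 15 and 6 in shBMAL1, and 23 and 5 in the direct contrast, and the gamma sum in shBMAL1 was 0.15. The omission of pseudogene rows from the sums was not run, because the member rows held none. Members with few counts are limited by depth.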
